A study of Mus musculus with 22 samples.

Results

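The vascular endothelial growth factor (VEGF) family was followed as 10 genes of the mouse: the ligands Vegfa, Pgf, Vegfb, Vegfc and Figf (the older symbol of Vegfd), the receptors Flt1, Kdr and Flt4, and the co-receptors Nrp1 and Nrp2. They were taken by symbol from a table of 23359 genes, and all 10 were present. Messenger RNA had been sequenced from hearts of male wild-type C57BL/6 mice aged 10 to 14 weeks. The 3 cardiomyocyte (CM) libraries were taken as sedentary from the series' design text. The 19 cardiac fibroblast (CF) libraries came from mice 5 days after MI (n = 2), after 10 days (n = 3) or 4 days (n = 3) of swimming, 10 days (n = 3) or 3 days (n = 3) after TAC, 3 days after a sham operation (n = 2), and from sedentary mice (n = 3). The abbreviations are the labels' own; TAC was taken to mean transverse aortic constriction (a narrowed aorta that overloads the ventricle) and MI myocardial infarction. How the cells were isolated, and whether animals were pooled, is not given in the sources used here.

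VEGF ligands are secreted dimers that bind receptor tyrosine kinases on blood and lymphatic endothelium. Vegfa acts through Kdr (VEGFR2), the main signalling receptor, and also binds Flt1 (VEGFR1), a high-affinity receptor that can act as a decoy. Pgf and Vegfb bind Flt1, while Vegfc and the product of Figf bind Flt4 (VEGFR3), the receptor best known from lymphatic vessels. Nrp1 and Nrp2 are co-receptors for VEGF ligands and for class-3 semaphorins. In the heart, cardiomyocytes are a known source of Vegfb and Vegfa, and endothelial cells carry most of the receptors.

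Expression was given as FPKM, fragment counts scaled by transcript length and by library size. Levels still varied with transcript length in a way that differed between groups, as described below, which limits comparisons between genes. Tests used limma on log2(FPKM + 1), with Benjamini-Hochberg adjustment over all genes tested (9425 in fibroblasts), and a gene was called at an adjusted p under 0.05. Each log2 fold change is on that scale, which understates changes of low genes, and its error is the standard error (SE). All 10 members passed the filter, which required 2 or more libraries at FPKM 1 or above. The deposited loci (mm10) put Vegfa at chr17:46016993-46032377, Pgf at chr12:85166639-85177313, Vegfb at chr19:6982472-6987651, Vegfc at chr8:54077532-54186454 and Figf at chrX:164373548-164402647. They put Flt1 at chr5:147562196-147725988, Kdr at chr5:75933270-75978428, Flt4 at chr11:49609679-49652739, Nrp1 at chr8:128359073-128505475 and Nrp2 at chr1:62703317-62818692. Each value covers the whole gene. No read counts were given, so the depth is unknown. Nothing in the labels says that replicate libraries are different mice, so a p-value here speaks of library spread alone, which may be technical.

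The labels were checked against markers. All 10 cardiomyocyte markers were higher in cardiomyocytes than in sedentary fibroblasts, with a summed level of 16100 to 20500 FPKM in cardiomyocytes and 54.5 to 366 FPKM in sedentary fibroblasts. All 10 fibroblast markers were lower in cardiomyocytes. The fibroblast libraries also held macrophage and leukocyte markers (summed 567 to 1920 FPKM) and the 20 endothelial markers (summed 159 to 1300 FPKM), none of which was at 0 in any library. In bulk RNA, fewer cells of a type and less RNA per cell cannot be told apart. Transcript length moved with the groups: per doubling of length, the deviation of a gene from its own mean sloped by 0.249 to 0.382 log2 units in the 7 MI, sham and sedentary libraries, and by -0.433 to -0.00574 in the 12 swim and TAC libraries. Calls were therefore also read after a smooth trend on length and GC content had been removed from each library. Calls on members that ended or turned there are named beside the result. For the gene lists compared between fibroblast groups, the counts called there are given where they differed, and not each gene. Both MI titles share a date-like number that no other fibroblast group carries, which cannot be told apart from MI.

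The promoters of the 3 receptors are shown because Flt1, Kdr and Flt4 moved together across the fibroblast libraries, as described further on. Each is the 250 bases before the RefSeq start of the gene in GRCm38.p6, 5′ to 3′ on the gene's strand. Capitals mark GGAA on either strand (TTCC on the strand shown), the core of the motif bound by ETS factors, a family with known roles in endothelial genes.

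Flt1: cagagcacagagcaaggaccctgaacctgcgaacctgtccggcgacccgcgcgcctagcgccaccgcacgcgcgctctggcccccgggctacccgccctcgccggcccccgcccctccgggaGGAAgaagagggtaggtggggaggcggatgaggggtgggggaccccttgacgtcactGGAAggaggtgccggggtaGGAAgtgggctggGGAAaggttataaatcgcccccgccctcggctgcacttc
Kdr: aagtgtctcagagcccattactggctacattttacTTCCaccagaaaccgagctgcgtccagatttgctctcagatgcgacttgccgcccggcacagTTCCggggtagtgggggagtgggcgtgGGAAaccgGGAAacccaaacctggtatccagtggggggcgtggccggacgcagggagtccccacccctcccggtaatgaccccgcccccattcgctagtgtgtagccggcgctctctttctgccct
Flt4: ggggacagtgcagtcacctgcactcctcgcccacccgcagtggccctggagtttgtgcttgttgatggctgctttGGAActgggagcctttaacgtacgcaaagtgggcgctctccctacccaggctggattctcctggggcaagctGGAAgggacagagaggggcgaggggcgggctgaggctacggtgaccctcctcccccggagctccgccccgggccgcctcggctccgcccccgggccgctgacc

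The Flt1 window (chr5:147726012-147726261, minus strand) held 4 matches, the Kdr window (chr5:75978456-75978705, minus strand) held 4, and the Flt4 window (chr11:49609429-49609678, plus strand) held 2. The motif is common: 93.4% of 32851 promoter windows of the same length held at least 1 GGAA. The matches describe the windows and are not evidence of binding.

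Cardiomyocyte and fibroblast libraries of sedentary mice differed in their ligand levels. As deposited, Vegfb was the only member called higher in cardiomyocytes, and the other 4 ligands, Flt4 and both neuropilins were lower there. Vegfa, at a mean of 11.1 FPKM, was still the highest member in cardiomyocytes after Vegfb. The level of Vegfb was 47.5, 67.8 and 50.8 FPKM in the 3 cardiomyocyte libraries, against 1.78, 2.62 and 1.75 FPKM in the 3 sedentary fibroblast libraries. The groups lay far apart, at 27 times the level in cardiomyocytes (log2 fold change 4.20, SE 0.2, adjusted p = 1.72e-13). Pgf, which acts through Flt1, had 1.99, 0.659 and 1.54 FPKM in cardiomyocytes, against 20.2, 33 and 10.3 FPKM in fibroblasts. Every cardiomyocyte library lay under every fibroblast library (log2 fold change -3.11, SE 0.352, adjusted p = 1.38e-07). Vegfa was at 14, 10.9 and 8.37 FPKM in cardiomyocytes, against 38.5, 31.1 and 17.2 FPKM in fibroblasts (log2 fold change -1.26, SE 0.529, adjusted p = 0.0381). The Vegfa groups did not overlap, but the call was lost without the sedentary fibroblast replicate 1 or 2, without cardiomyocyte replicate 2 or 3, and with no filter on low values (adjusted p up to 0.132).

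In all, 1 member was higher and 7 were lower in cardiomyocytes, where 38.7% of the 10371 genes tested were called higher and 38.6% lower. The median log2 fold change was -0.76 over the members and -0.05 over all genes tested. Vegfc and Figf, the ligands of Flt4, were near the bottom of the measured range in cardiomyocytes, at 0.562 ± 0.0842 and 0.23 ± 0.118 FPKM (SD, n = 3), against 2.32 ± 0.409 and 1.24 ± 0.249 FPKM in fibroblasts. Kdr was the highest receptor in cardiomyocytes, with 3.55, 5.07 and 6.88 FPKM, against 2.72, 3.17 and 4.91 FPKM in fibroblasts; the ranges overlapped (log2 fold change 0.42, adjusted p = 0.154). Flt1 overlapped too (-0.36, adjusted p = 0.162). With the length and GC trend removed, 2 members were higher (Kdr then passed at 0.84, adjusted p = 0.0055) and 5 were lower, and the Flt4 and Nrp1 calls ended (adjusted p = 0.0756 and 0.617); that of Nrp1 was also lost without sedentary fibroblast replicate 1 or 3 or cardiomyocyte replicate 1 (adjusted p up to 0.176). The cardiomyocyte libraries also carried endothelial markers at a summed 353 to 632 FPKM, against 251 to 353 FPKM in sedentary fibroblasts, and their part in the receptor levels was not tested.

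Within the fibroblast libraries the family spanned more than an order of magnitude. Over medians pooled across all 19 libraries, whatever their group, Vegfa had the highest level, at 23.9 FPKM (2.91 to 65.2), followed by Pgf at 19.7 FPKM (4.29 to 34). Nrp1 (5.6 FPKM), Nrp2 (3.75), Vegfb (2.62), Figf (2.41) and Vegfc (2.21) were intermediate. The receptors were lowest, with Kdr at 1.64 FPKM, Flt1 at 1.07 FPKM and Flt4 at 0.789 FPKM, and Flt4 reached 1 FPKM in 6 of the 19 libraries. The order of means differed between groups in the values as deposited. These carry the length trend described above, and its part in the order was not tested. In sedentary fibroblasts Kdr (3.6 FPKM) and Flt1 (2.86 FPKM) were above Vegfc (2.32 FPKM), Vegfb (2.05 FPKM) and Figf (1.24 FPKM). After MI Pgf (5.17 FPKM) was below Nrp2 (10.8 FPKM) and Nrp1 (7.54 FPKM), and after 4 days of swimming Pgf (25.9 FPKM) was above Vegfa (14.1 FPKM).

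**Figure D1:**
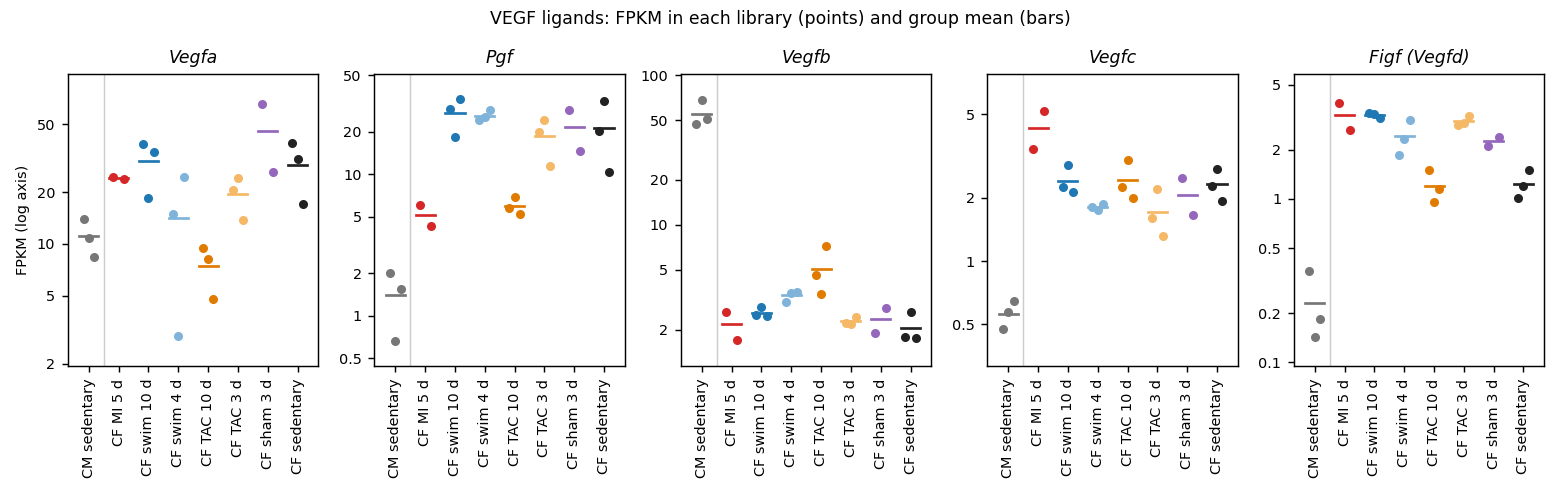
FPKM of the 5 VEGF ligands on a log axis, 1 panel per gene, with a point per library and a bar at each group mean; cardiomyocytes stand left of the line and the 7 fibroblast groups right of it. Vegfb is near 50 FPKM only in cardiomyocytes, Pgf is low after MI and 10 days of TAC, and Figf lies above the sedentary libraries in every fibroblast group but 10 day TAC.

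After 3 days of TAC, against sham, the receptors Flt1 and Kdr and both neuropilins were lower, while Flt4 (0.06, adjusted p = 0.794) and the ligands were not called. That made 4 members lower and 0 higher; 25.8% of all genes tested were called lower and 31.3% higher. The members' median log2 fold change was -0.46, against 0.05 over all genes. Without the length and GC trend 4 members were again lower, but they were Nrp2, Vegfa, Vegfb (-0.91, adjusted p = 0.000824) and Vegfc (-0.65, adjusted p = 0.00853), and the calls of Flt1, Kdr and Nrp1 ended.

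After 10 days of TAC, against sedentary, Vegfa, Pgf and Nrp2 were lower and Vegfb was higher (1 member higher, where 38.8% of genes tested were, and 3 lower, where 27.0% were). The members' median was -0.23, against 0.12 over all genes. With the trend removed 0 members were higher and 4 were lower, namely Vegfa, Pgf, Nrp2 and Vegfc (-0.49, adjusted p = 0.0176). At 10 days of TAC, against 3 days, the receptors Flt1, Kdr and Flt4 and the ligand Vegfb were higher, and Pgf and Figf were lower (4 members higher, where 4.42% of genes tested were, and 2 lower, where 2.18% were); the members' median was 0.44, against -0.02 over all genes.

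After MI, against sedentary, Vegfc and Figf were higher and Pgf was lower (2 members higher and 1 lower, where 8.93% of genes tested were higher and 2.34% lower). The members' median was -0.06, against 0.1 over all genes; with the trend removed, or with libraries scaled to the same median, 1 was higher (Figf) and 1 lower (Pgf). Against sham, Vegfc was again higher and Pgf lower (1 each, where 6.32% of genes tested were higher and 3.56% lower). No receptor or co-receptor was called after MI.

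Receptor levels were lower after swimming than in sedentary libraries, and no test set swimming against sham. After 4 days, against sedentary, all 3 receptors and both neuropilins were lower, and Figf and Vegfb were higher (2 members higher, where 38.2% of genes tested were, and 5 lower, where 26.3% were). The members' median was -0.61, against 0.13 over all genes. With the length and GC trend removed 1 member was higher (Figf) and 6 were lower: Flt1, Kdr and Nrp2, then Vegfa and Vegfc (-0.82, adjusted p = 0.000659), which had not been called, and Vegfb, which turned. The calls of Flt4 and Nrp1 ended there. With libraries scaled to the same median 1 was higher (Figf) and 6 were lower, Vegfa being added (-1.37, adjusted p = 0.023) and Vegfb not called (0.49, adjusted p = 0.0559). After 10 days Figf was higher, and Flt1, Kdr and Nrp2 were lower (1 higher, where 30.0% of genes tested were, and 3 lower, where 13.6% were). The comparisons of MI, 10 day TAC, 4 day swim, 10 day swim and cardiomyocytes all share the same 3 sedentary fibroblast libraries.

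Between 10 and 4 days of swimming limma called 0 members, and 4 had an unadjusted p under 0.05 (Vegfa, Figf, Flt1 and Nrp2, all higher at 10 days); 0.0106% of genes tested were called higher and 0.308% lower. In the authors' deposited table CF_swim10d over CF_swim4d was at a log2 value of 1.49 for Flt1 (q = 0.000672), 1.19 for Nrp2 (q = 0.0307) and 1.07 for Vegfa (q = 0.0454). Between sham and sedentary limma also called 0 members, and 2 had an unadjusted p under 0.05 (Figf higher, Flt4 lower in sham); 0.0212% of genes tested were higher and 0% lower. In the authors' deposited table, whose group names are not tied to libraries, Flt4 was at a log2 value of -1.21 (q = 0.028) for CF_TACcontrol over CF_swimControl.

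**Figure D2:**
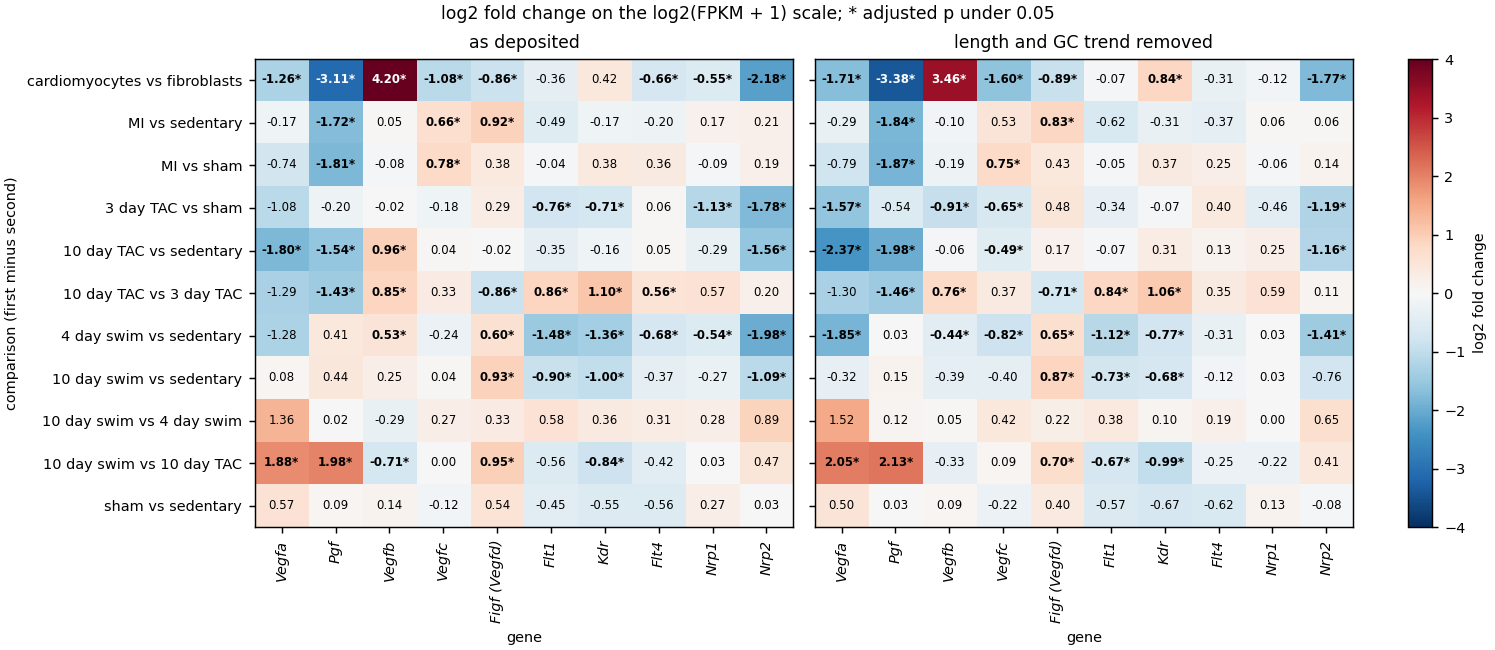
Log2 fold change on the log2(FPKM + 1) scale for the 10 members (columns) in 11 comparisons (rows, first group minus second), as deposited (left) and with the length and GC trend removed (right); a star marks an adjusted p under 0.05. Nrp2 is low after 3 and 10 days of TAC and 4 days of swimming in both panels, while Vegfb after 10 days of TAC is 0.96 on the left and -0.06 on the right.

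Among the ligands, Vegfa, the main angiogenic factor, was lowest after 10 days of TAC. It had 9.41, 8.12 and 4.75 FPKM in the 10 day TAC libraries, against 38.5, 31.1 and 17.2 FPKM in sedentary ones. The 3 TAC libraries lay under the 3 sedentary ones (log2 fold change -1.80, SE 0.552, adjusted p = 0.00982), as they did with the trend removed (-2.37, adjusted p = 0.00191). After 3 days of TAC it had 20.6, 24.2 and 13.8 FPKM, against 65.2 and 26.1 FPKM in sham. The groups did not overlap, but sham itself spread widely and the change was not called (-1.08, adjusted p = 0.147; -1.57, adjusted p = 0.0443 with the trend removed).

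The swim libraries were uneven in Vegfa. After 4 days they had 15, 2.91 and 24.4 FPKM, and after 10 days 38.1, 18.6 and 34.4 FPKM. The 4 day libraries spanned the widest range of any group relative to their mean (14.1 ± 10.8 FPKM, SD, n = 3), and the 10 day libraries lay within the sedentary range. The 4 day change missed the threshold as deposited (-1.28, adjusted p = 0.0525) and passed with the trend removed (-1.85, adjusted p = 0.00976). MI libraries had 24.7 and 23.9 FPKM, within the sedentary range. From highest to lowest mean the groups ran sham (45.7 ± 27.6 FPKM), 10 day swim, sedentary, MI, 3 day TAC, 4 day swim, cardiomyocytes and 10 day TAC (7.43 ± 2.41 FPKM), and every neighbouring pair in that order overlapped.

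Pgf, placental growth factor, separated the fibroblast groups into a high and a low set. It had 6.06 and 4.29 FPKM after MI and 5.73, 6.9 and 5.2 FPKM after 10 days of TAC, against 20.2, 33 and 10.3 FPKM in sedentary fibroblasts. All 5 MI and 10 day TAC libraries lay below every other fibroblast library, the lowest of which was the sedentary one at 10.3 FPKM. The 10 day TAC level was 0.281 times the sedentary level (log2 fold change -1.54, SE 0.353, adjusted p = 0.00113), and the MI level 0.244 times (-1.72, SE 0.395, adjusted p = 0.00806). Against sham, with 28.6 and 14.6 FPKM, MI was lower by -1.81 (adjusted p = 0.0114). Both MI calls rest on 2 libraries and were lost without MI replicate 2 (adjusted p = 0.166 against sedentary and 0.159 against sham), as was the one against sham without sham replicate 1 (adjusted p = 0.143). Both were also lost when only the 2 compared groups were fitted.

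Swimming left Pgf in the high set, with 28.7, 18.4 and 34 FPKM at 10 days and 24, 25.4 and 28.3 FPKM at 4 days. Neither swim time was called against sedentary (0.44, adjusted p = 0.335 at 10 days; 0.41, adjusted p = 0.314 at 4 days). Within the TAC course Pgf fell to 5.94 ± 0.874 FPKM at 10 days, against 18.5 ± 6.51 FPKM at 3 days (SD, n = 3 each; log2 fold change -1.43, SE 0.353, adjusted p = 0.0199). That call was lost without any of 4 single libraries, namely 10 day replicate 1 or 3 and 3 day replicate 1 or 2 (adjusted p up to 0.0888).

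Figf, whose product VEGF-D binds Flt4, was higher than sedentary after MI and at both swim times, but not after 10 days of TAC. Its level was 3.88 and 2.66 FPKM after MI, 3.34, 3.29 and 3.11 FPKM after 10 days and 1.86, 2.33 and 3.06 FPKM after 4 days of swimming, against 1.01, 1.2 and 1.51 FPKM in sedentary fibroblasts. All 8 libraries lay above the 3 sedentary ones. The log2 fold change was 0.92 (SE 0.17, adjusted p = 0.00155) after MI, 0.93 (SE 0.152, adjusted p = 0.000185) after 10 days and 0.60 (SE 0.152, adjusted p = 0.00246) after 4 days of swimming. The 10 day swim libraries were tight, at 3.25 ± 0.122 FPKM.

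In the TAC course Figf went the other way. It fell to 1.51, 0.957 and 1.15 FPKM at 10 days, against 2.82, 2.92 and 3.24 FPKM at 3 days. The groups did not overlap (log2 fold change -0.86, SE 0.152, adjusted p = 0.00237), and 10 day TAC overlapped sedentary (-0.02, adjusted p = 0.897). Sham libraries, at 2.11 and 2.41 FPKM, were between sedentary and 3 day TAC without overlapping either. Neither 3 day TAC nor MI was called against sham (0.29, adjusted p = 0.15 and 0.38, adjusted p = 0.249), so the rise after MI holds against sedentary only.

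Vegfc, the other Flt4 ligand, was highest after MI. It had 3.4 and 5.18 FPKM after MI, against 2.28, 2.75 and 1.94 FPKM in sedentary and 2.48 and 1.66 FPKM in sham fibroblasts. Both MI libraries lay above all others (log2 fold change 0.66, SE 0.193, adjusted p = 0.0348 against sedentary; 0.78, SE 0.211, adjusted p = 0.0256 against sham). The calls were lost without MI replicate 2 (adjusted p = 0.53 and 0.391), and that against sedentary also with the trend removed (0.53, adjusted p = 0.0677), with a pseudocount of 0.1 (adjusted p = 0.0518), with libraries scaled to the same median (adjusted p = 0.0834), and without sedentary replicate 1 or 3 (adjusted p up to 0.106). The call against sham was lost without sham replicate 2 as well (adjusted p = 0.183). Both Vegfc calls were also lost when only the 2 compared groups were fitted. In the other fibroblast groups Vegfc stayed between 1.32 and 3.03 FPKM as deposited. With the trend removed it was called lower after 3 days of TAC against sham (-0.65, adjusted p = 0.00853). The same held against sedentary after 10 days of TAC (-0.49, adjusted p = 0.0176) and 4 days of swimming (-0.82, adjusted p = 0.000659).

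Vegfb in fibroblasts was higher after 10 days of TAC and 4 days of swimming. It had 4.62, 3.45 and 7.18 FPKM after 10 days of TAC and 3.07, 3.5 and 3.59 FPKM after 4 days of swimming, against 1.78, 2.62 and 1.75 FPKM in sedentary libraries. Neither group overlapped sedentary (log2 fold change 0.96, SE 0.194, adjusted p = 0.00038 for TAC; 0.53, SE 0.194, adjusted p = 0.0228 for swimming). Vegfb has the shortest mean transcript of the family, at 966 bases, and both directions turned when the length and GC trend was removed (-0.06, adjusted p = 0.769 for TAC; -0.44, adjusted p = 0.0294 for swimming). The swimming call was also lost with libraries scaled to the same median, and without sedentary replicate 1 or 3 or swim replicate 2 or 3 (adjusted p up to 0.0802). Cardiomyocytes express Vegfb strongly. Cardiomyocyte markers summed to 178 to 781 FPKM in 10 day TAC libraries, against 54.5 to 366 FPKM in sedentary fibroblasts. Of 8 markers tested 5 were called higher (0 with the trend removed), where 38.8% of all genes tested were. Their part in the Vegfb level was not tested.

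Within the TAC course the Vegfb rise was also seen with the trend removed. The 3 day TAC libraries had 2.22, 2.17 and 2.42 FPKM and lay below all 3 of the 10 day ones (log2 fold change 0.85, SE 0.194, adjusted p = 0.0127; 0.76 with the trend removed). The call was lost without 10 day replicate 3 or 3 day replicate 1 (adjusted p up to 0.0552). Cardiomyocyte markers had a median of 0.93 between these times, against -0.02 over all genes, with 0 of 8 called. They summed to 638, 178 and 781 FPKM in 10 day replicates 1, 2 and 3, where Vegfb was at 4.62, 3.45 and 7.18 FPKM. At 3 days they summed to 206 to 238 FPKM. Their part in this rise was not tested.

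**Figure D3:**
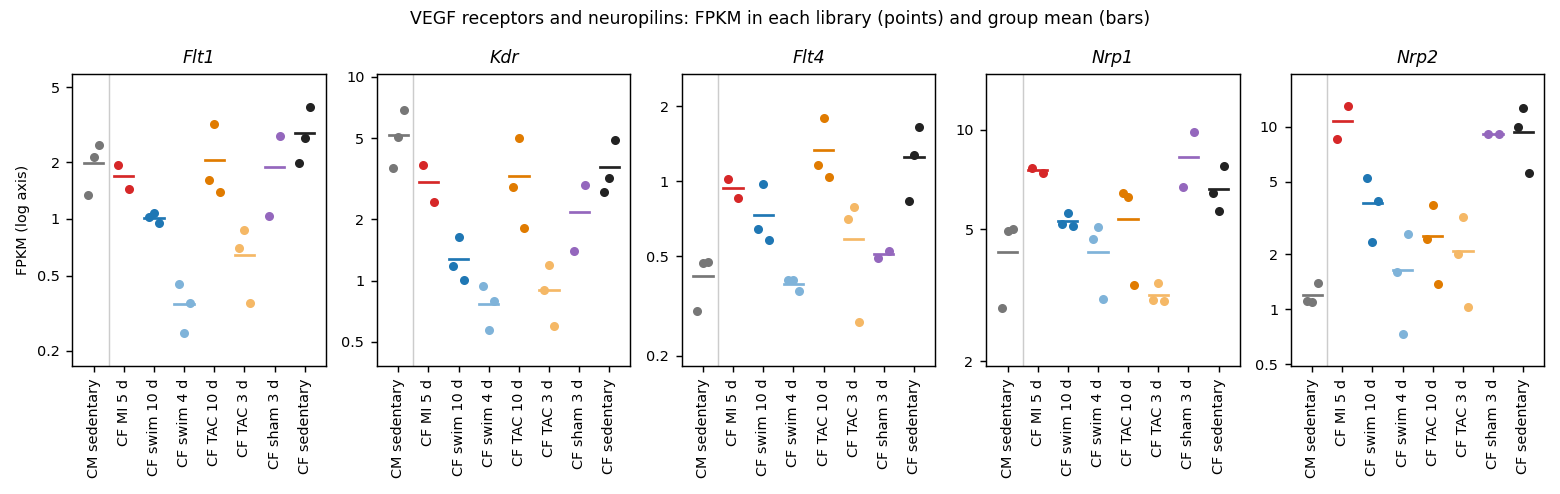
FPKM of Flt1, Kdr, Flt4, Nrp1 and Nrp2 on a log axis, 1 panel per gene, with a point per library and a bar at each group mean; cardiomyocytes stand left of the line and fibroblast groups right of it. Flt1 and Kdr are lowest after 4 days of swimming and 3 days of TAC, and Nrp2 is highest in MI, sham and sedentary fibroblasts.

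Among the receptors, Flt1 was lowest after 4 days of swimming. It had 1.03, 1.07 and 0.949 FPKM after 10 days and 0.453, 0.248 and 0.357 FPKM after 4 days of swimming, against 1.97, 2.68 and 3.92 FPKM in sedentary fibroblasts. The 3 groups did not overlap, and the level was 0.123 times the sedentary one at 4 days (log2 fold change -1.48, SE 0.231, adjusted p = 3.6e-05) and 0.356 times at 10 days (-0.90, SE 0.231, adjusted p = 0.00479). With the trend removed the values were -1.12 (adjusted p = 0.000838) and -0.73 (adjusted p = 0.0234). The change between the swim times was not called by limma (0.58, adjusted p = 0.165).

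Kdr followed Flt1. It had 1.18, 1.64 and 1.01 FPKM after 10 days and 0.939, 0.57 and 0.797 FPKM after 4 days of swimming, against 2.72, 3.17 and 4.91 FPKM in sedentary fibroblasts. All 6 swim libraries lay below the sedentary ones (log2 fold change -1, SE 0.253, adjusted p = 0.00462 at 10 days; -1.36, SE 0.253, adjusted p = 0.000193 at 4 days), also with the trend removed (-0.68, adjusted p = 0.0444 and -0.77, adjusted p = 0.0144). Sham libraries had 1.04 and 2.74 FPKM of Flt1 and 1.4 and 2.96 FPKM of Kdr. The 10 day swim libraries overlapped sham in both receptors, and the 4 day ones lay below it. Flt4 was lower after 4 days, with 0.401, 0.402 and 0.364 FPKM, against 0.837, 1.28 and 1.66 FPKM in sedentary libraries (-0.68, SE 0.153, adjusted p = 0.000886). Its call ended with the trend removed (-0.31, adjusted p = 0.113), and at 10 days it was -0.37 (adjusted p = 0.058; -0.45, adjusted p = 0.0341 with libraries scaled to the same median).

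In the TAC course the blood vessel receptors were low at 3 days and higher at 10 days. Kdr had 2.89, 5.02 and 1.82 FPKM at 10 days and 0.902, 1.19 and 0.596 FPKM at 3 days, against 1.4 and 2.96 FPKM in sham. The 3 day libraries lay below both other groups. The log2 fold change was 1.10 between 10 and 3 days (SE 0.253, adjusted p = 0.0135; 1.06 with the trend removed) and -0.71 for 3 day TAC against sham (SE 0.283, adjusted p = 0.0402; -0.07, adjusted p = 0.839 with the trend removed). Flt1 had 1.6, 3.18 and 1.39 FPKM at 10 days and 0.698, 0.877 and 0.359 FPKM at 3 days, against 1.04 and 2.74 FPKM in sham. Its 3 day libraries too lay below both other groups (0.86, SE 0.231, adjusted p = 0.0323 between times; -0.76, SE 0.258, adjusted p = 0.0188 against sham, and -0.34, adjusted p = 0.29 there with the trend removed).

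These TAC calls rest on single libraries. The call between times was lost without 10 day replicate 2 or 3 day replicate 3 for Kdr (adjusted p up to 0.0797), and without 10 day replicate 2 or 3 day replicate 1 or 3, or with no filter on low values, for Flt1 (adjusted p up to 0.159). Against sham, both calls were lost without 3 day replicate 3 or sham replicate 2 (adjusted p up to 0.355 for Flt1 and 0.397 for Kdr), and that of Kdr also without 3 day replicate 1, with no filter on low values and with libraries scaled to the same median. Flt4 was 1.33 ± 0.41 FPKM at 10 days, against 0.588 ± 0.277 FPKM at 3 days (0.56, SE 0.153, adjusted p = 0.0372; 0.35, adjusted p = 0.19 with the trend removed), and was lost without 10 day replicate 1 or 2 or 3 day replicate 1 or 3 (adjusted p up to 0.168). The Flt4 call was also lost with no filter on low values, with limma's trend and robust settings off, and with only the 2 compared groups fitted. Against sedentary, 10 day TAC overlapped in all 3 receptors and none was called. After MI, Kdr and Flt4 overlapped sedentary and Flt1 lay just below it, with Kdr at 3.06 ± 0.875 FPKM (n = 2), against 3.6 ± 1.15 FPKM (n = 3).

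Endothelial markers moved with the receptors in part. Of the 20 markers, 2 were higher and 10 lower after 4 days of swimming (median log2 fold change -0.66, against 0.13 over all genes). Of all genes tested 38.2% were higher and 26.3% lower there. After 10 days of swimming 1 marker was higher and 3 lower, where 30.0% and 13.6% of genes tested were. Between 10 and 3 days of TAC 13 were higher and 0 lower (median 1.16, against -0.02), where 4.42% and 2.18% of genes tested were. With the trend removed the counts were 2 and 12, 1 and 3, and 15 and 0, in that order. Cdh5, the adhesion protein of endothelial junctions, had 1.78 ± 0.418 FPKM after 4 days of swimming, against 14.7 ± 3.05 FPKM in sedentary libraries (-2.49, adjusted p = 2.99e-06), and 17.4 ± 7.82 FPKM after 10 days of TAC, against 3.69 ± 1.8 FPKM after 3 days (1.98, adjusted p = 0.000614). Pecam1, a surface marker of endothelium, had 3.36 ± 0.566 FPKM after 4 days of swimming, against 14.4 ± 2.65 FPKM in sedentary libraries (-1.82, adjusted p = 0.000367). Rgs5, a pericyte marker, had 3.65 ± 1.17 FPKM, against 18 ± 4.94 FPKM (-2.03, adjusted p = 3.79e-05). In sham, against sedentary, the 20 endothelial markers had a median of -0.62, against 0.09 over all genes, with 0 called. There 0.0212% of genes tested were higher and 0% lower. Cdh5 was at 5.58 ± 1.79 FPKM in sham (-1.27, adjusted p = 0.258).

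In other comparisons the calls of markers and receptors differed in part. After 3 days of TAC, against sham, 7 of 20 endothelial markers were higher and 0 lower, while Flt1 and Kdr were lower. Cdh5 (-0.55), Pecam1 (-0.24), Emcn (-0.12) and Tie1 (0.12) were among the markers not called. Over all genes tested 31.3% were higher and 25.8% lower, so the marker count lay near the share called higher. With the trend removed 2 markers were higher and 0 lower, and neither Flt1 nor Kdr was called. After 10 days of TAC, against sedentary, 11 markers were higher and 1 lower, and no receptor was called. Tie1 was among those higher (0.98), while Pecam1 (-0.04), Cdh5 (0.16) and Emcn (0.17) were not called, as the receptors were not. There 38.8% of genes tested were higher and 27.0% lower, and with the trend removed 9 markers were higher and 1 lower. The part of endothelial cells in the receptor changes was not tested.

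Set against the mean log2(FPKM + 1) of the 20 endothelial markers in the same library, Kdr was low in the swim and TAC libraries alike. The difference of Kdr from that mean was -1.67 (-1.8 to -1.51) after 10 days of swimming, -1.69 (-2.02 to -1.4) after 4 days of swimming, -1.93 (-2.26 to -1.6) after 10 days of TAC and -1.84 (-1.96 to -1.72) after 3 days of TAC. It was -0.7 after MI and -0.64 in sham, against -0.84 (-0.95 to -0.66) in sedentary libraries. Every one of the 12 swim and TAC libraries lay below the other 7. For Flt1 the difference was -1.84, -2.07, -2.38 and -2.04 in the same 4 groups, -1.28 after MI and -0.8 in sham, against -1.09 in sedentary libraries. Flt4 did not separate the libraries in this way: its difference was -2.06 (-2.22 to -1.92) at the 10 day swim time, -2.03 (-2.18 to -1.87) at the 4 day one, -2.74 after 10 days and -2.1 after 3 days of TAC, -1.75 after MI and -1.67 (-1.95 to -1.4) in sham, against -1.85 (-1.92 to -1.82) in sedentary libraries. The same 12 libraries are those with the negative slopes on length, and both receptors have long transcripts (mean 4374 bases for Kdr and 2989 for Flt1). With the trend removed the Flt1 and Kdr calls after swimming held, as given above, and that of neither after 3 days of TAC; the difference from the markers was not recomputed that way.

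**Figure D4:**
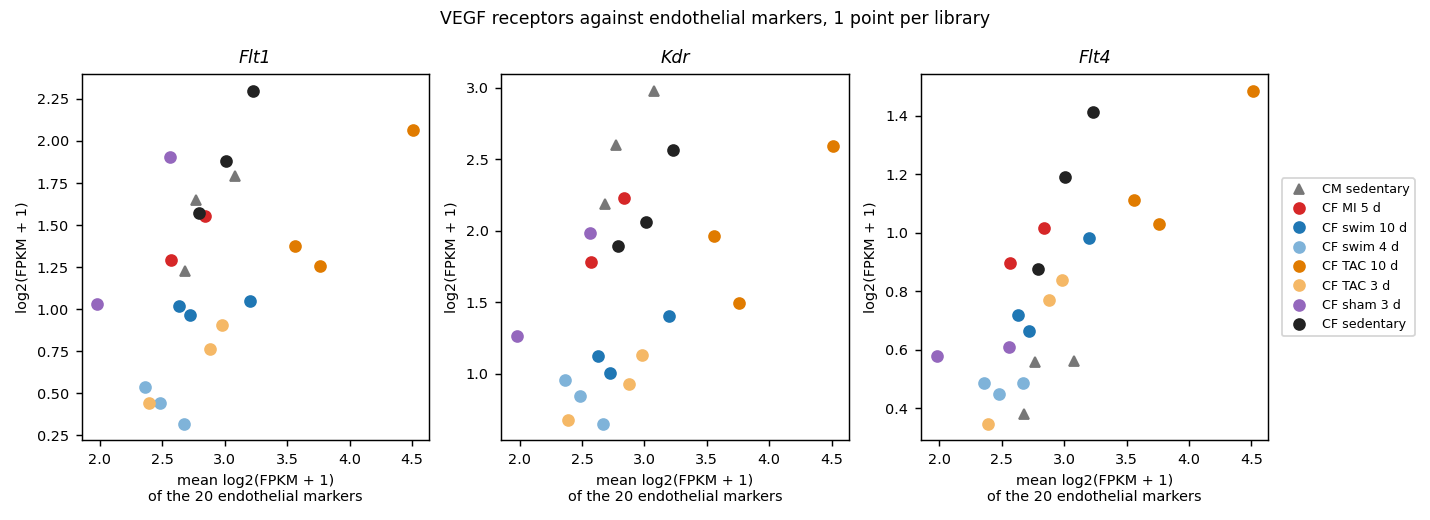
Flt1, Kdr and Flt4 as log2(FPKM + 1) (y axes) against the mean log2(FPKM + 1) of 20 endothelial markers (x axes), 1 point per library, cardiomyocytes as triangles and fibroblasts as circles. For Flt1 and Kdr the swim and TAC libraries lie below the MI, sham and sedentary ones at a like marker level; 10 day TAC libraries reach the highest marker means, 3.56 to 4.51.

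Of the co-receptors, Nrp2 was the member with the most regular pattern. It had 8.56 and 13 FPKM after MI, 9.13 and 9.16 FPKM in sham and 9.95, 12.7 and 5.6 FPKM in sedentary fibroblasts. In the other libraries it was lower throughout, with 5.23, 2.33 and 3.93 FPKM after 10 days of swimming, 1.6, 0.731 and 2.58 FPKM after 4 days of swimming, 2.44, 3.75 and 1.37 FPKM after 10 days of TAC, and 2, 3.19 and 1.03 FPKM after 3 days of TAC. No swim or TAC library reached the lowest MI, sham or sedentary library. The log2 fold change was -1.98 for 4 day swim (SE 0.348, adjusted p = 0.000118) and -1.09 for 10 day swim (SE 0.348, adjusted p = 0.0181) against sedentary. It was -1.56 for 10 day TAC against sedentary (SE 0.348, adjusted p = 0.000951) and -1.78 for 3 day TAC against sham (SE 0.389, adjusted p = 0.000987).

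Nrp2 has the longest mean transcript of the family, at 5671 bases. With the trend removed it was -1.41 (adjusted p = 0.000867) after 4 days of swimming, -1.16 (adjusted p = 0.00333) after 10 days of TAC and -1.19 (adjusted p = 0.00729) after 3 days of TAC, but -0.76 (adjusted p = 0.0561) after 10 days of swimming. The 10 day swim call was also lost without sedentary replicate 1 or 2 or swim replicate 2 (adjusted p up to 0.0952). The locus given for Nrp2 also holds the row of 4930487H11Rik, and that of Nrp1 the row of Mir1903, so reads of these genes could have been shared.

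Nrp1 varied less. It was at 3.05, 3.44 and 3.04 FPKM after 3 days of TAC, against 6.7 and 9.8 FPKM in sham. The groups did not overlap (log2 fold change -1.13, SE 0.232, adjusted p = 0.000597), but the call ended with the trend removed (-0.46, adjusted p = 0.126). After 4 days of swimming it had 4.66, 5.08 and 3.08 FPKM, against 6.44, 5.66 and 7.78 FPKM in sedentary libraries (-0.54, SE 0.208, adjusted p = 0.0292), which turned to 0.03 (adjusted p = 0.912) with the trend removed and was lost without sedentary replicate 1 or 3 or swim replicate 3 (adjusted p up to 0.148). The 4 day swim call was also lost when only the 2 compared groups were fitted. The remaining fibroblast groups ranged from 3.4 to 7.68 FPKM and none was called.

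Exercise and pressure overload were also compared directly at 10 days, which needs no sedentary library. After 10 days of swimming, against 10 days of TAC, Vegfa, Pgf and Figf were higher and Vegfb and Kdr were lower (3 members higher, where 10.9% of genes tested were, and 2 lower, where 13.2% were). The members' median was 0.01, against 0.02 over all genes. Pgf was at 27 ± 7.94 FPKM after swimming, against 5.94 ± 0.874 FPKM after TAC (SD, n = 3 each), a ratio of 4.55 (log2 fold change 1.98, SE 0.353, adjusted p = 0.000997). Figf was at 3.25 ± 0.122 FPKM, against 1.21 ± 0.278 FPKM (0.95, SE 0.152, adjusted p = 0.00039). Vegfa was at 30.4 ± 10.4 FPKM, against 7.43 ± 2.41 FPKM (1.88, SE 0.552, adjusted p = 0.0239).

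The groups did not overlap for 7 of the 10 members, namely the 5 called and the uncalled Flt1 and Flt4. Between the swim times, where 0 were called, 7 of 10 did not overlap either. The share of all genes without overlap was not counted. With the trend removed Flt1 was called lower in 10 day swim against 10 day TAC (-0.67, adjusted p = 0.0469). Only the Pgf and Figf calls held in every alternative run; Vegfa was lost without 10 day TAC replicate 3 or 10 day swim replicate 1 or 3 (adjusted p up to 0.104). Kdr was at 1.27 ± 0.327 FPKM after swimming, against 3.24 ± 1.63 FPKM after TAC (-0.84, SE 0.253, adjusted p = 0.0249), and was lost without TAC replicate 2 or swim replicate 1 or 3, and with no filter on low values (adjusted p up to 0.114). Vegfb was at 2.59 ± 0.197 FPKM, against 5.08 ± 1.91 FPKM (-0.71, SE 0.194, adjusted p = 0.0146), and was lost with the trend removed (-0.33, adjusted p = 0.147) and without TAC replicate 3 or swim replicate 1 or 3 (adjusted p up to 0.0879). Endothelial markers ran with Kdr here, with 0 of 20 higher and 13 lower after swimming.

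The courses themselves were compared by a contrast added after the values had been seen, the change between 10 and 3 days of TAC minus the change between 10 and 4 days of swimming. Vegfb was higher (1.14, SE 0.274, adjusted p = 0.0232) and Figf lower (-1.19, SE 0.216, adjusted p = 0.00501) in that contrast, 1 member each way, where 4.31% of genes tested were higher and 1.86% lower. Vegfa was at -2.66 (adjusted p = 0.0547; -2.58, adjusted p = 0.0408 with libraries scaled to the same median). With the trend removed 0 members were higher and 2 lower, namely Figf and Vegfa (-2.82, adjusted p = 0.0436), and Vegfb was 0.71 (adjusted p = 0.0705). The Vegfb call was also lost without 3 day TAC replicate 1 or 2, 10 day swim replicate 1 or 3, or 4 day swim replicate 2 (adjusted p up to 0.0683). The 8 cardiomyocyte markers tested had a median of 1.1 in the same contrast, against -0.02 over all genes, with 0 called, and their part in the Vegfb value was not tested. The first swim time is 4 days and the first TAC time 3 days.

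The genes that act below the receptors were described from a list of 37, of which 35 were tested in fibroblasts. After 4 days of swimming 8 were higher and 12 lower (median -0.08, against 0.13 over all genes), and after 10 days of TAC 7 and 12 (median -0.2). After 3 days of TAC against sham the counts were 6 and 10 (median -0.2), and after 10 days of swimming 4 and 8 (median 0.13). With the trend removed they were 10 and 11, 9 and 10, 5 and 9, and 5 and 5, in that order. Over all genes tested, 38.2% were higher and 26.3% lower after 4 days of swimming, and 38.8% and 27.0% after 10 days of TAC. The shares were 31.3% and 25.8% after 3 days of TAC, and 30.0% and 13.6% after 10 days of swimming. The list counts below are to be read against the same shares. Iqgap1, a scaffold that binds Kdr, was lower in each of these comparisons. Its level was 3.02 ± 1.1 FPKM after 10 days of swimming and 1.67 ± 0.471 FPKM after 4 days of swimming. It was 1.86 ± 0.437 FPKM after 10 days of TAC, against 10.5 ± 2.97 FPKM in sedentary libraries. Its log2 fold changes were -1.53 (adjusted p = 9.19e-05), -2.10 (adjusted p = 1.52e-06) and -2 (adjusted p = 2.63e-06). Hras1, a small GTPase of the MAP kinase pathway, was higher, with 5.85 ± 1.05 FPKM after 4 days of swimming, against 1.83 ± 0.265 FPKM (1.27, adjusted p = 7.47e-06). Nos3, the endothelial nitric oxide synthase, was at 0.697 ± 0.228 FPKM after 10 days of swimming, against 2.35 ± 1.2 FPKM after 10 days of TAC (-0.93, adjusted p = 0.00605).

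Regulators and targets of hypoxia-inducible factors, which drive Vegfa under low oxygen, did not move one way. Of 18 tested, 5 were higher and 6 lower after 4 days of swimming, and 4 and 3 after 10 days of swimming. The counts were 7 and 6 after 10 days of TAC, 0 and 1 after MI, and 5 and 4 after 3 days of TAC against sham. With the trend removed they were 6 and 5, 3 and 4, 7 and 4, 0 and 2, and 6 and 4, in that order. After MI, against sedentary, 8.93% of genes tested were higher and 2.34% lower, and the other shares are those given above. Hif1a had 2.48 ± 1.58 FPKM after 4 days of swimming and 3.78 ± 2.12 FPKM after 10 days of TAC, against 14.8 ± 7 FPKM in sedentary libraries (-2.17, adjusted p = 0.000407 and -1.70, adjusted p = 0.00272). Epas1, which encodes HIF-2 alpha, had 1.95 ± 0.688 FPKM after 4 days of swimming, against 8.33 ± 2.27 FPKM (-1.66, adjusted p = 9.23e-06). Adm, a vasodilator peptide and hypoxia target, was low where Pgf was low: 3.91 ± 1.18 FPKM after MI and 3.44 ± 1.22 FPKM after 10 days of TAC, against 13 ± 6.34 FPKM in sedentary libraries (-1.43, adjusted p = 0.0167 and -1.60, adjusted p = 0.000474). Ldha and Ddit4, also hypoxia targets, were higher after 10 days of TAC, with Ldha at 75.8 ± 9.63 FPKM, against 31.9 ± 7.79 FPKM (1.24, adjusted p = 9.51e-05). Neither was particular to that group. Ddit4 was also higher after 4 and 10 days of swimming (1.77, adjusted p = 9.55e-06 and 1.78, adjusted p = 4.58e-05). Ldha was also higher after 3 days of TAC against sham (1.45, adjusted p = 8.62e-05). After 10 days of swimming Ldha was higher too (0.63, adjusted p = 0.025), but not with the trend removed (0.04, adjusted p = 0.855).

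Partners of the neuropilins were mostly lower in the swim libraries, as Nrp2 was. Of 7 tested, 1 was higher and 5 lower at each swim time (median -0.85 at 4 days and -0.67 at 10 days). With the trend removed 0 were higher and 5 lower at each time. Plxnd1, a semaphorin receptor of blood vessels, had 0.737 ± 0.0247 FPKM after 10 days and 0.518 ± 0.202 FPKM after 4 days of swimming, against 2.63 ± 0.13 FPKM in sedentary libraries (-1.06, adjusted p = 0.000147 and -1.27, adjusted p = 8.44e-06). Sema3c, a ligand of both neuropilins, had 0.774 ± 0.484 FPKM after 10 days of TAC, against 4.62 ± 1.89 FPKM (-1.65, adjusted p = 0.00013). After 10 days of TAC 2 partners were higher and 2 lower (2 and 4 with the trend removed). After 3 days of TAC 1 was higher and 3 lower (1 and 2 with the trend removed).

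The angiopoietin and Tie genes, another vascular receptor system, were lower in swimming: all 4 tested were called lower at both times, and 2 at 4 days and 1 at 10 days with the trend removed. After 10 days of TAC, against sedentary, 1 was higher (Tie1) and 3 were lower, namely Tek (-0.73, adjusted p = 0.0089), Angpt2 (-0.59, adjusted p = 0.00162) and Ptprb (-0.45, adjusted p = 0.047), and 1 was higher and 1 (Angpt2) lower with the trend removed. Angpt2, the ligand that destabilises vessels, had 0.103 ± 0.0791 FPKM after 4 days of swimming, against 0.97 ± 0.536 FPKM (-0.81, adjusted p = 0.000116). Tie1, an endothelial receptor, was at 1.78 ± 0.175 FPKM after 4 days of swimming and 11 ± 5.33 FPKM after 10 days of TAC, against 4.82 ± 1.12 FPKM (-1.05, adjusted p = 0.00288 and 0.98, adjusted p = 0.00466). Of the genes that process VEGF-C and VEGF-D, 4 were tested. Counts higher and lower were 0 and 1 after 4 days of swimming and 1 and 0 after 10 days. After 10 days of TAC they were 2 and 1, after 3 days of TAC 0 and 1, and after MI 1 and 0. With the trend removed they were 1 and 1, 1 and 0, 1 and 1, 0 and 0, and 1 and 0, in that order. Furin, of that list, had 4.12 ± 1.94 FPKM after 4 days of swimming, against 15.4 ± 5.37 FPKM (-1.71, adjusted p = 0.000157). Adamts2, a collagen propeptidase of that list, had 23.9 ± 2.85 FPKM after MI, against 7.86 ± 2.04 FPKM in sedentary libraries (1.51, adjusted p = 0.000409). It was also higher after 10 days of TAC, at 13.3 ± 1.6 FPKM (0.71, adjusted p = 0.00884), where Vegfc (0.04) and Figf (-0.02) were not called as deposited. With the trend removed Vegfc was lower there (-0.49, adjusted p = 0.0176). Ccbe1, a cofactor of VEGF-C cleavage, had 1.89 ± 0.33 FPKM after 10 days of swimming, against 0.364 ± 0.118 FPKM after 10 days of TAC (1.08, adjusted p = 0.000222). Against sedentary it was lower after 10 days of TAC (-0.65, adjusted p = 0.00218) and higher after 10 days of swimming (0.43, adjusted p = 0.0401). After 3 days of TAC it was lower than sham (-0.65, adjusted p = 0.00611). Both TAC calls ended with the trend removed (-0.29, adjusted p = 0.212 and -0.16, adjusted p = 0.572).

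Lymphatic endothelial markers, of which 4 of 6 were tested, were in 0 cases called higher than sedentary after MI or at either swim time. After 4 days of swimming 0 were higher and 3 lower (0 and 2 with the trend removed). After 10 days of swimming 0 of 4 were called (1 lower with the trend removed), and after MI 0 of 4 were called. After 10 days of TAC 0 were higher and 3 lower (median -1.25, against 0.12 over all genes). Neither Flt4 ligand was called there as deposited, but Vegfc was lower with the trend removed (-0.49, adjusted p = 0.0176). Lyve1 had 2.44 ± 1.63 FPKM after 10 days of TAC, against 9.29 ± 1.86 FPKM in sedentary libraries (-1.67, adjusted p = 0.000598); some macrophages express Lyve1 as well. Prox1, the defining lymphatic factor, was at 0.244 ± 0.0884 FPKM in sedentary fibroblasts and did not enter the fibroblast test.

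Across the 19 fibroblast libraries the receptors resembled each other more than the ligands did. Pearson's r of log2(FPKM + 1) was 0.96 for Flt1 and Kdr, 0.86 for Kdr and Flt4, and 0.82 for Flt1 and Flt4, and 0.92, 0.71 and 0.63 with the length and GC trend removed. Vegfa and Vegfb had r = -0.69 as deposited and 0.23 with the trend removed. These values describe points that share groups, library scaling and the trend on length.

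Among 8809 other genes, those most like Flt1 were Gpr116 (r = 0.975, an adhesion receptor of endothelium and lung epithelium), Palmd (0.948) and Epas1 (0.937). The genes most like Kdr were Rgs5 (0.948), Palmd (0.943) and Itga6 (0.941, a laminin receptor subunit), and that most like Flt4 was Mmrn2 (0.967, an endothelial matrix protein of the marker list). Vegfa was most like Zfp828 (0.971), Vasn (0.97) and Slc7a1 (0.966), and Pgf most like Pnp2 (0.93), Pnp (0.926) and Penk (0.908). Pnp2 and Pnp are near-identical copies whose reads may be split between them. Figf had no close match, with Bmper at 0.747, Galnt16 at 0.746 and Cxcl12 at 0.745. Nrp2 was most like Jak2 (0.973), Fnbp1l (0.971) and Vcpip1 (0.97), and Nrp1 most like Cdk19 (0.924), Tcf4 (0.92) and Zbtb1 (0.92). Vegfb was most like Pdk2 (0.89), Gpsm1 (0.878) and Pwwp2b (0.876), and Vegfc most like Tmem47 (0.865), Gcnt2 (0.86) and Eda2r (0.848). For Flt4, Mmrn2 was followed by Shank3 (0.934) and Podxl (0.928). Of the first 3 genes for each member, the number that stayed among the first 3 with the trend removed was 2 for Pgf, 1 each for Vegfb, Figf, Flt1 and Nrp2, and 0 for the other 5 members.

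The authors' deposited table of their own comparisons covers the same members, but which libraries each of its group names stands for is not stated. Figf was at a log2 value of 1.47 (q = 0.00097) for CF_MI5d over CF_swimControl in the authors' deposited table. Flt1 was at -2.94 (q = 8.2e-10) for CF_swim4d over CF_swimControl, and Pgf at 2.12 (q = 4e-11) for CF_swim10d over CF_path10d, both in the authors' deposited table.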

How the data were processed

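Per the labels' protocols, RNA was purified with a column kit and made into stranded libraries. Per the submitters' processing notes, the authors used mm10 and Cufflinks 2.0.2; no source used here names the aligner, the annotation or the use of strand. FPKM per library was deposited by the authors. Their deposited comparison table holds log2 values and q-values. The 44 columns of FPKM bounds were not used. In 27 rows a date-like entry stood in place of the symbol, and no symbol was restored. Rows with a repeated symbol were told apart by locus.

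With limma 3.58.1 in R 4.3.3, trend and robust settings on, log2(FPKM + 1) was modelled once over the 19 fibroblast libraries (9425 genes) and once over all 22 libraries (10371 genes) for cardiomyocytes. A called gene had a Benjamini-Hochberg adjusted p under 0.05. The length and GC trend was a spline with 4 degrees of freedom on each, for genes with a GENCODE M21 length (22989 in the table). The fit was tested on simulated data. Alternatives were another pseudocount (0.1), other filters, scaling to the same median, plain limma settings, fits of the compared groups alone, a block and each library left out.

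The members and the 11 lists (151 entries) were chosen with earlier results of these data known. Named were all members and the 3 genes most like each. Other genes came from up to 4 called genes with the largest change per list and comparison, and not all of these are given. A fixed set was to be named whatever its values: Pecam1, Cdh5, Tie1, Emcn, Prox1, Lyve1, Col1a1, Pdgfra, Tcf21, Myh6, Tnnt2, Ptprc, Rgs5, Hif1a and Epas1. Of that set, Col1a1, Pdgfra, Tcf21, Myh6, Tnnt2 and Ptprc are not given here, and the rest only for some comparisons.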

Additional observations from a re-analysis of the deposited data

Results flagged for a closer look

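The TAC and swim courses differed in Vegfb and Figf, by a contrast added after the values had been seen. The change of Vegfb between 10 and 3 days of TAC minus its change between 10 and 4 days of swimming was 1.14 on the log2 scale (adjusted p = 0.0232 by limma), with no overlap between the times in either course. That of Figf was -1.19 (adjusted p = 0.00501), where all 3 libraries at 10 days of TAC lay below all at 3 days, and all 3 at 10 days of swimming above all at 4 days. The Figf value ranged from -1.70 to -0.93 over the 17 alternatives and was called in each; the Vegfb value ranged from 0.71 to 1.44 and was called in 11 of 17. The 8 cardiomyocyte markers tested had a median of 1.1 in the same contrast, against -0.02 over all genes, with 0 called; Vegfb was at 27 times the fibroblast level in cardiomyocytes, and their part in its value was not tested.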

How the results depend on the processing

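Of 45 calls on members, 44 kept direction and threshold with a pseudocount of 0.1, 40 with no filter, 42 with scaling to the same median, 44 with plain limma settings, and 31 with the length and GC trend removed, where 3 turned (Vegfb -0.06 after 10 days of TAC and -0.44 after 4 days of swimming, Nrp1 0.03 after 4 days of swimming). When every left-out library is counted, 25 of 45 held. With FPKM of at least 5 required, fewer members were tested and the counts called were 2 for 3 day TAC, 1 for MI against sedentary and 1 against sham, 3 for 4 day swim, 1 for 10 day swim, 1 between the TAC times, 2 for 10 day swim against TAC, 1 for the courses and 5 for cardiomyocytes. Fitting the compared groups alone kept 37 of 43 calls. It left 1 call for MI against sedentary, that of Figf, and 0 against sham. Leaving out single libraries gave 2 to 4 calls for 3 day TAC, 4 to 5 for 10 day TAC, 1 to 3 for MI against sedentary, 0 to 2 against sham, 5 to 8 for 4 day swim, 3 to 4 for 10 day swim, 2 to 5 between the TAC times, 2 to 6 for 10 day swim against TAC, 1 to 4 for the courses and 6 to 7 for cardiomyocytes. The contrast of the courses, and the gene lists read with the trend removed or scaled, were added after seeing the data. With no read counts, limits from depth cannot be given.

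Cardiomyocyte and sedentary fibroblast titles share 3 tags. Same-tag deviations correlated at 0.23, 0.07 and 0.31, not all above 0.1, though each cardiomyocyte library correlated best with its own tag, which is a hint only; 1 fibroblast library did not (0.08 with another tag, 0.07 with its own). With the tag as a replicate block the count called for cardiomyocytes was 8, as without it.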
